A study of Mus musculus with 14 samples.

Results

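Retinoic acid is made inside cells from vitamin A, and 9 mouse genes that take part in its uptake, synthesis, binding, breakdown and reading are described here across sorted skin cells. They are the retinal dehydrogenase genes Aldh1a7, Aldh1a1 and Aldh1a3, the retinol uptake gene Stra6, the retinoic acid binding protein genes Crabp1 and Crabp2, the breakdown gene Cyp26b1 and the receptor genes Rara and Rarg. They were chosen by name, with earlier results of these libraries known, and each had 1 row among the 24537 gene symbols of both deposited tables. Differences between genotypes are therefore given for the 9 genes as descriptions, without p-values.

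RNA was sequenced from 14 sorted libraries of mouse skin. Regulatory T cells (Treg cells, which restrain immune responses and express Foxp3) were taken 1 day after hair depilation from GR KO mice (5 libraries) and GR WT mice (3 libraries). GR KO mice carry GR fl/fl alleles of the glucocorticoid receptor gene and Foxp3YFP-Cre, so that Cre is made in Foxp3-expressing cells, while GR WT mice are labelled wild type. Hair follicle stem cells (HFSC), sorted as CD34+ITGA6high cells, were taken 4 days after depilation from GR KO mice (3 libraries) and GR WT mice (3 libraries). Deletion is thus directed at Treg cells, and HFSC of GR KO mice are cells that the Cre does not target. Depilation of resting skin starts a new hair cycle, and the study's title frames the work by glucocorticoid signalling in Treg cells and stem cell activation. The labels do not say whether each library came from a separate mouse.

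Retinol enters cells through the STRA6 receptor or by diffusion, is oxidised to retinal by alcohol and short-chain dehydrogenases, and is then oxidised to retinoic acid by retinal dehydrogenases of the ALDH1A family. CRABP1 and CRABP2 carry retinoic acid within the cell, CYP26 enzymes degrade it, and nuclear RAR receptors paired with RXR receptors read it at DNA. In skin, vitamin A is known to act on keratinocyte differentiation, sebaceous glands and the hair cycle, and in Treg cells retinoic acid is known for its part in Foxp3 induction and homing.

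Nr3c1, which encodes the glucocorticoid receptor, averaged 129.5 ± 27.3 TPM in Treg GR KO libraries and 211 ± 35.3 TPM in Treg GR WT libraries (SD, n = 5 and 3; log2 fold change -0.71, SE 0.17, limma adjusted p = 0.0722), and the groups overlapped. In HFSC it averaged 43.6 ± 6.89 TPM in GR KO and 41.6 ± 7.07 TPM in GR WT (SD, n = 3 each). TPM is transcript abundance scaled by transcript length. Depth, recovered from the smallest steps of the values, lay between 4.50 and 7.99 M tags for the HFSC libraries and between 9.17 and 14.5 M for those of Treg cells. The shallowest HFSC library, GR WT replicate 1, stood apart on the first principal component, at 59.8 against -17.7 to -4.02 for the other 5. The 6 markers of Treg cells, Foxp3 among them, summed to 4545 to 7627 TPM in Treg GR KO and 6930 to 7653 TPM in Treg GR WT libraries. The 8 markers of HFSC, Cd34, Itga6 and Krt15 among them, summed to 4392 to 5681 TPM in HFSC GR KO and 5483 to 8244 TPM in HFSC GR WT libraries. The labelled cell types were thus present in their tables.

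Aldh1a7 (NM_011921, chr19:20692953-20727556, minus strand) and Aldh1a1 (NM_013467, chr19:20601982-20643462, plus strand) are neighbours on chromosome 19 with no other gene of the deposited tables between them. Their transcripts were close in sequence, with 1836 of 2050 aligned bases equal (89.6%). Of the 2017 stretches of 50 bases in Aldh1a7, 151 (7.49%) also stood in Aldh1a1, and of its 1967 stretches of 100 bases, 1 did (0.0508%). How the authors' counting split reads between such near-identical copies is, in the sources used here, not given, and the low values of Aldh1a1 in particular are uncertain. The 250 bases before each start are shown because these neighbours, which stood far apart in level, share the sequence nearest to their starts. They come from RefSeq on GRCm38.p6, at chr19:20727557-20727806 on the minus strand for Aldh1a7 and at chr19:20601718-20601967 on the plus strand for Aldh1a1, each read 5′ to 3′ towards the start. The Aldh1a1 window belongs to a listed start 14 bases upstream of that of NM_013467, and its distances are counted to that listed start. Capitals mark the longest run that both windows hold, 65 bases long, which ends 29 bases before the start in each.
Aldh1a7: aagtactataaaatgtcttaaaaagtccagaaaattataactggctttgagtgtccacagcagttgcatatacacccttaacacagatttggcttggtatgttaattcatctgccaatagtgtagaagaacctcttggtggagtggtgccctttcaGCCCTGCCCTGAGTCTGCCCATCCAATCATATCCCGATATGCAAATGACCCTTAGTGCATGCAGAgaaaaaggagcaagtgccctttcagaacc
Aldh1a1: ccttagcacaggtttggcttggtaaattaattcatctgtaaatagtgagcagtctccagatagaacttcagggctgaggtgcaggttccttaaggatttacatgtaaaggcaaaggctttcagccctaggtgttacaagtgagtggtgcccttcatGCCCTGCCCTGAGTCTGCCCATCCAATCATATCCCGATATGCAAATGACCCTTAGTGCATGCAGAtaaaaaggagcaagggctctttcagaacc
Within the last 100 bases 94 were equal, while over the whole windows 173 of 236 aligned bases were (73.3%). The shared run holds the octamer ATGCAAAT, 56 bases before either start, and CCAAT, 72 bases before either start. Searched on both strands, the octamer was found in 1.60% and CCAAT in 33.8% of 32851 windows of the same length before mouse gene starts. Neither window holds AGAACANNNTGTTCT, a palindromic form of the glucocorticoid response element, which 0.00913% of all windows hold, nor its single arm AGAACA, which 16.1% hold. A match or its lack describes these letters in these windows and says nothing of binding.

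Rarg is the member for which the tables name different transcripts. The HFSC table measures NM_011244 (chr15:102234938-102257522, minus strand, 2946 bases) and the Treg table NM_001042727 (chr15:102234938-102246500, minus strand, 2710 bases), which share their end and start at different promoters. Both upstream windows, chr15:102257523-102257772 for the longer gene model and chr15:102246501-102246750 for the shorter, are shown because they differ in composition. They are from RefSeq on GRCm38.p6, minus strand, 5′ to 3′, with GGGCGG on either strand (the GC box, present in 32.7% of all windows) in capitals.
Rarg long: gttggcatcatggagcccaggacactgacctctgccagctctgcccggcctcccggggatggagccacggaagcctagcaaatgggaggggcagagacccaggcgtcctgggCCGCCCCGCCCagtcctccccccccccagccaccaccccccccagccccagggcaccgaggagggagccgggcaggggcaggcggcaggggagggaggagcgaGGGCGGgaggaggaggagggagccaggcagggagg
Rarg short: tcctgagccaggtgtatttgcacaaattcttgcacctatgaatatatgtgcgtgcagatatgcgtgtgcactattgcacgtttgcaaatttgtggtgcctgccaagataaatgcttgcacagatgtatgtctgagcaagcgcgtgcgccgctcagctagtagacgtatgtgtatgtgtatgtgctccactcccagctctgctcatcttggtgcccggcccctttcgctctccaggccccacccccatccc
The window of the longer model has 74.4% G and C and holds the GC box at 3 places, of which 2 share a base, against 52.4% and none in the shorter. It also holds AGGTCA, the repeat unit of the retinoic acid response element, once on the minus strand, a motif of 14.0% of all windows. Neither window holds the direct repeat AGGTCANNNNNAGGTCA, found in 0.00913%. A promoter window was matched for 7 of the 9 members, and none of these windows holds the full palindrome or the full repeat. For Aldh1a1 and Cyp26b1 the nearest window starts 14 and 98 bases from the start of the measured transcript.

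Each cell type had its own leading retinoid gene. In HFSC, Rarg averaged 224 TPM over the 6 libraries, followed by Aldh1a7 at 58.2 TPM and Rara at 36.2 TPM, whose ranges overlapped. Crabp1 (8.07 TPM), Crabp2 (7.46 TPM), Aldh1a1 (3.33 TPM) and Cyp26b1 (2.25 TPM) came next, each overlapping its neighbour in the order, and Aldh1a3 and Stra6 averaged 0.261 and 0.177 TPM. In Treg cells, Crabp1 led with an average of 442 TPM over the 8 libraries, above every value of Rara (62.9 TPM) and Rarg (37.4 TPM), which overlapped each other. Crabp2 (6.41 TPM) and Cyp26b1 (3.16 TPM) overlapped, and the 3 dehydrogenase genes and Stra6 each averaged between 0.0788 and 0.290 TPM with overlapping ranges.

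Set across the tables, which were made separately, every HFSC library was above every Treg library for 3 of the 9 members and below for 1, while 5 overlapped. Aldh1a7 averaged about 200 times, and Aldh1a1 about 15.3 times, as much TPM in HFSC as in Treg cells. Both ratios are imprecise, as the Treg means were 0.290 and 0.217 TPM, with 4 Treg libraries at 0 for each gene. They also pool the genotypes, and Aldh1a7 averaged 0.0182 TPM in Treg GR KO and 0.743 TPM in Treg GR WT. Rarg was 5.98 times as high in HFSC, over the different transcripts given above. Crabp1 ran the other way, with a Treg mean 54.7 times the HFSC mean. These are levels of different cells on different days after depilation, and in bulk RNA, fewer cells of a type and less RNA per cell cannot be told apart.

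**Figure D1:**
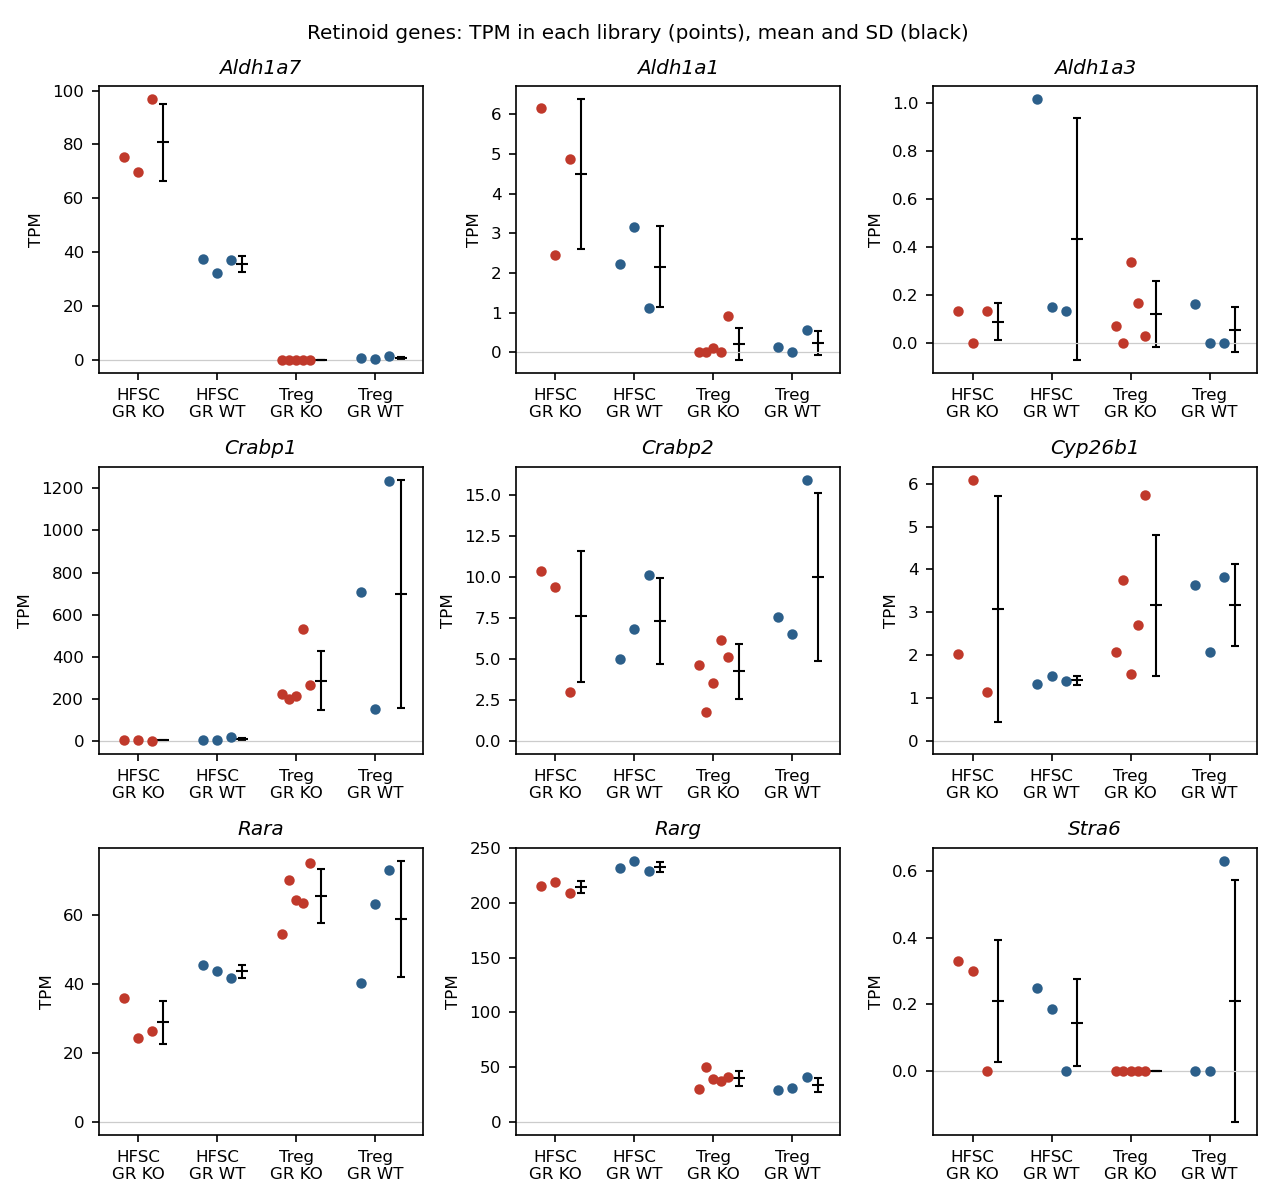
Level of each of the 9 genes in TPM (vertical axis, linear, own scale per panel) in every HFSC and Treg library of GR KO (red) and GR WT (blue), with the mean and SD of each group in black. Aldh1a7 separates the HFSC groups, at 69.9 to 96.8 TPM in GR KO and 32.3 to 37.3 TPM in GR WT, while Crabp1 is high in Treg cells only and spreads widely there, and error bars that reach below 0 come from groups with values at or near 0.

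Aldh1a7 had a log2 fold change of 1.15 (SE 0.14) in HFSC, near in size to the -1.10 of Crabp1 but with a smaller error than its 0.52. It encodes a cytosolic aldehyde dehydrogenase, present in mouse and lacking in human, that is classed with the retinal dehydrogenases by sequence, although the mouse enzyme is reported to act poorly on retinal itself. It had 75.4, 69.9 and 96.8 TPM in HFSC GR KO libraries, against 37.3, 32.3 and 37.2 TPM in HFSC GR WT libraries. Every GR KO library was above every GR WT library, with means of 80.7 ± 14.2 TPM in GR KO and 35.6 ± 2.86 TPM in GR WT (SD, n = 3 each), and all fold changes are on the log2(TPM + 1) scale. It rested on 682 to 888 tags in GR KO and 222 to 336 tags in GR WT libraries. With any 1 of the 6 libraries left out the log2 fold change lay between 1.01 and 1.24.

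Aldh1a1, the main retinal dehydrogenase of many adult tissues, was an order of size lower in HFSC. It had 6.17, 2.44 and 4.87 TPM in GR KO and 2.21, 3.15 and 1.12 TPM in GR WT, and the groups overlapped (log2 fold change 0.78, SE 0.38). The level of Aldh1a7 was 12.2 to 28.6 times that of Aldh1a1 in GR KO libraries and 10.3 to 33.1 times in GR WT libraries, so the ratio of the neighbours overlapped between genotypes. The fold change of Aldh1a1 rests on few tags, 24 to 55 in GR KO and 10 to 25 in GR WT, and lay between 0.52 and 1.09 with 1 library left out. Aldh1a3, a retinal dehydrogenase of sense organs and of some epithelia, had 0.134, 0 and 0.132 TPM in GR KO and 1.02, 0.150 and 0.134 TPM in GR WT, below the mean of 1 TPM required for the fit. Its highest value was that of GR WT replicate 1, from 10 tags.

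In Treg cells the dehydrogenase genes were near the limit of counting. Aldh1a7 had 0, 0, 0, 0.0910 and 0 TPM in GR KO and 0.539, 0.374 and 1.32 TPM in GR WT, from 2 tags in the whole GR KO group and 8, 6 and 28 tags in the GR WT libraries. For this transcript 3 tags, the upper limit that a count of 0 allows, were worth 0.135 to 0.202 TPM in Treg libraries, a limit that covers counting error only. All GR KO values were below that limit and all GR WT values above it. However, 62.7% to 65.6% of the tag counts above 0 in Treg libraries were even, so tags may come in pairs. The limit may then be higher, and the 6 tags of GR WT replicate 2 may not clear it. Aldh1a1 had 0, 0, 0.113, 0 and 0.913 TPM in GR KO and 0.137, 0 and 0.572 TPM in GR WT. Aldh1a3 had 0.0720, 0, 0.336, 0.165 and 0.0270 TPM in GR KO and 0.163, 0 and 0 TPM in GR WT, and both genes overlapped between the groups. Markers of basal keratinocytes moved with Aldh1a7 in these libraries. The 6 of them summed to 6.34 to 68.3 TPM in Treg GR KO and to 185 to 312 TPM in Treg GR WT. All 6 passed an adjusted p of 0.05 in the fit over all genes (limma), lower in GR KO, beside 1.31% of all genes. All 6 were also lower without overlap, beside 5.1% of all genes. None of the 6 was at 0 in every library, and their part in the Aldh1a7 values was not tested.

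Stra6, the receptor that takes up retinol from its plasma carrier, was at or near 0 in both cell types. In HFSC it had 0.330, 0.299 and 0 TPM in GR KO and 0.250, 0.185 and 0 TPM in GR WT, each from at most 4 tags. In Treg cells it was at 0 in all 5 GR KO libraries, and at 0, 0 and 0.630 TPM in GR WT, where 18 tags of replicate 3 were its only signal.

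Crabp1 (NM_013496, chr9:54764748-54773110, plus strand), which encodes a cytosolic retinoic acid carrier, was the most abundant member in Treg cells and the most uneven. It had 224, 200.3, 213, 532 and 266 TPM in GR KO and 707, 155 and 1235 TPM in GR WT. The lowest value of all was that of GR WT replicate 2 and the highest that of GR WT replicate 3, so the GR WT libraries enclosed the whole GR KO group. The means were 287 ± 139 TPM in GR KO and 699 ± 540.0 TPM in GR WT (SD, n = 5 and 3; log2 fold change -0.94, SE 0.55). The difference rested on single GR WT libraries. It was -1.80 without GR WT replicate 2, the lowest library, and -0.31 without GR WT replicate 3, the highest. Only without GR WT replicate 2 did it pass the threshold over all genes. Nothing is read from that call, as Crabp1 was chosen with these contrasts known.

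Crabp2, the carrier that hands retinoic acid to RAR receptors in the nucleus, was far lower in Treg cells than Crabp1. It had 4.62, 1.76, 3.57, 6.15 and 5.15 TPM in GR KO and 7.55, 6.56 and 15.9 TPM in GR WT. All GR KO values were below all GR WT values (log2 fold change -1.04, SE 0.34), and without GR WT replicate 3 the fold change was -0.69. Crabp1 stood 48.6 to 114 times above Crabp2 in GR KO libraries and 23.7 to 93.6 times in GR WT libraries, on a per-length scale, so the ratio overlapped. GR WT replicate 3, the highest library for both carriers, also had the highest sums of fibroblast and of basal keratinocyte markers.

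Some lists of markers of cells other than Treg cells stood lower in the Treg GR KO libraries. The 6 fibroblast markers summed to 21.9 to 106 TPM in GR KO, with a median of 58.1 TPM, and to 112 to 190 TPM in GR WT, with a median of 142 TPM. None of the 6 passed the threshold, all 6 had negative fold changes and none was at 0 in every library. The 6 macrophage and monocyte markers summed to 44.6 to 127 TPM in GR KO and 175 to 284 TPM in GR WT. All 6 were lower in GR KO without overlap, and 4 of them passed the threshold, beside 1.31% of all genes that were lower. The 8 HFSC markers summed to 39.05 to 65.9 TPM in GR KO and 176 to 319 TPM in GR WT. The 5 suprabasal keratinocyte markers summed to 4.22 to 22.7 TPM in GR KO and 37.6 to 88.9 TPM in GR WT. In each of these lists 2 genes passed the threshold, lower in GR KO. Sums of some other lists overlapped, at 29.3 to 44.0 TPM in GR KO and 37.0 to 50.1 TPM in GR WT over 6 dendritic and Langerhans cell markers. The 8 sebocyte markers summed to 7.0 to 27.5 TPM in GR KO and 23.6 to 27.1 TPM in GR WT. The part of other cells in the Crabp1 and Crabp2 differences was not tested.

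**Figure D2:**
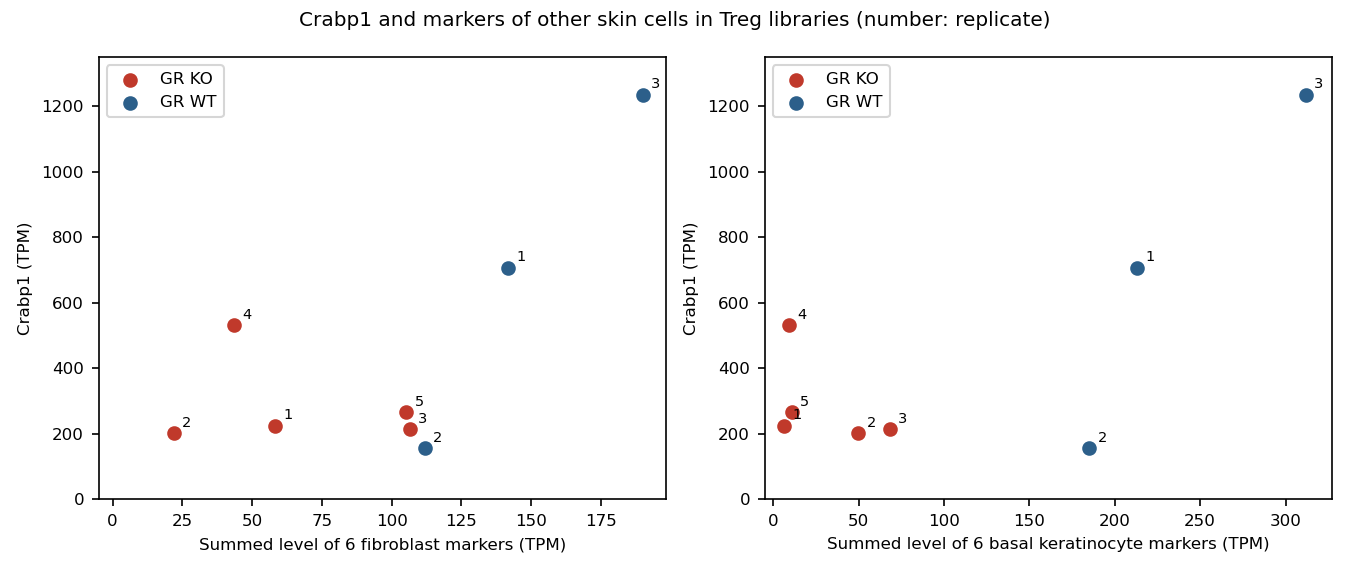
Crabp1 level in TPM (vertical axes) against the summed TPM of 6 fibroblast markers (left) and 6 basal keratinocyte markers (right) in the Treg libraries, GR KO in red and GR WT in blue, with replicate numbers beside the points. GR WT replicate 3 is highest on all axes at 1235 TPM of Crabp1, GR WT replicate 2 has the lowest Crabp1 at 155 TPM beside marker sums above those of all GR KO libraries, and GR KO replicate 4 has 532 TPM of Crabp1 beside lower sums.

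In HFSC, both carriers were low and their order differed by genotype. Crabp1 had 7.96, 5.68 and 1.40 TPM in GR KO and 6.90, 8.30 and 18.2 TPM in GR WT (log2 fold change -1.10, SE 0.52). Crabp2 had 10.4, 9.42 and 2.99 TPM in GR KO and 4.99, 6.82 and 10.1 TPM in GR WT (log2 fold change -0.05, SE 0.42). Each gene alone overlapped between the groups, and GR KO replicate 3 was the lowest library for both. Without it the fold change was -0.54 for Crabp1 and 0.44 for Crabp2. The ratio of Crabp1 to Crabp2 did not overlap, at 0.468 to 0.767 in GR KO and 1.22 to 1.80 in GR WT. That ratio was looked at after the values were seen, and rests on 5 to 28 Crabp1 tags and 12 to 41 Crabp2 tags per GR KO library, against 16 to 64 and 13 to 40 per GR WT library.

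Cyp26b1, which encodes an enzyme that breaks down retinoic acid, was low in both cell types. In HFSC it had 2.03, 6.09 and 1.14 TPM in GR KO and 1.32, 1.52 and 1.40 TPM in GR WT (log2 fold change 0.57, SE 0.45). GR KO replicate 2 alone was high, and without it the fold change was 0.08. In Treg cells it had 2.07, 3.75, 1.55, 2.70 and 5.73 TPM in GR KO and 3.64, 2.06 and 3.81 TPM in GR WT (log2 fold change -0.06, SE 0.33), with a range of -0.29 to 0.12 over the alternatives, so its direction turned. The groups overlapped in both cell types.

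Of the receptors, Rara was lower in the HFSC of GR KO mice in each library. It had 36.0, 24.2 and 26.3 TPM in GR KO and 45.5, 43.6 and 41.8 TPM in GR WT, with means of 28.8 ± 6.29 TPM in GR KO and 43.6 ± 1.86 TPM in GR WT (SD, n = 3 each; log2 fold change -0.60, SE 0.16). Rarg, the receptor for retinoic acid that predominates in epidermis, had 216, 219 and 209 TPM in GR KO and 232, 238 and 229 TPM in GR WT. Its groups did not overlap either, though the difference was small (log2 fold change -0.12, SE 0.08). As Rara was further apart than Rarg, the ratio of Rarg to Rara was 5.99 to 9.06 in GR KO and 5.09 to 5.48 in GR WT libraries. Basal keratinocyte markers stood lower beside them, with a sum of 13079 to 15205 TPM over 6 genes in HFSC GR KO and 17930 to 20178 TPM in HFSC GR WT. Krt5, the largest part of the sum, averaged 6895 TPM in GR KO and 9737 TPM in GR WT. Of the 6 fold changes 5 were negative and 1, that of Dsp, was positive. Only Krt5 and Krt17 did not overlap between the groups, beside 12.8% of all genes that were lower. None of the 6 was called or at 0, and their part in the receptor values was not tested.

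In Treg cells the receptor order was the reverse, and both overlapped between genotypes. Rara had 54.3, 69.9, 64.1, 63.3 and 75.0 TPM in GR KO and 40.3, 63.1 and 72.9 TPM in GR WT (log2 fold change 0.18, SE 0.18). Without GR WT replicate 1, the lowest library, it was -0.06. Rarg had 30.5, 50.4, 39.4, 37.6 and 40.9 TPM in GR KO and 28.8, 30.6 and 40.9 TPM in GR WT (log2 fold change 0.24, SE 0.17). The ratio of Rarg to Rara was 0.545 to 0.720 in GR KO and 0.484 to 0.715 in GR WT libraries, against at least 5.09 in every HFSC library.

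Over the members as a list, 7 of 9 in HFSC had a mean of at least 1 TPM and entered the fit over all genes. Of these, 1 passed an adjusted p of 0.05, Aldh1a7, beside 0.176% of the 12493 genes tested (0.144% higher and 0.032% lower). The call was lost with any 1 of the 6 libraries left out, and with no filter on low values. Without overlap between the groups, 1 member was higher and 2 were lower in GR KO, beside 10.7% and 12.8% of all genes tested, or 23.5% in either direction. The median log2 fold change was -0.05 over the 7 members and -0.02 over all genes. In Treg cells 5 of 9 members entered the fit and 0 passed, beside 1.51% of the 11579 genes tested by limma (0.199% higher and 1.31% lower). At an unadjusted p under 0.05 the counts were 1 member and 1630 genes. Crabp2 was the 1 tested member without overlap, lower in GR KO, beside 5.1% of all genes that were lower, 3.42% that were higher and 8.52% in either direction. The median was -0.06 over the 5 members and -0.04 over all genes. Since the members were chosen with these contrasts known, nothing is read from these counts.

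Around the members, 50 other genes of the retinoid pathway were followed from a list of carriers, oxidoreductases, receptors, cofactors and targets. In HFSC 31 of them were tested and 0 passed the limma threshold, with 8 at an unadjusted p under 0.05, beside 2074 of all genes. The median log2 fold change of the 31 was 0.09, with 20 positive and 11 negative. In Treg cells 28 were tested and 1, Fabp5, passed, lower in GR KO, beside 1.31% of all genes that were lower. At an unadjusted p under 0.05 stood 15 of the 28, beside 1630 of all 11579 genes. The median of the 28 was -0.47, with 22 of 28 negative, against -0.04 over all genes. These counts include 8 receptor cofactors, described below, which were all negative and all at such a p.

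Fabp5 encodes a fatty acid binding protein that can pass retinoic acid to PPAR delta, the receptor encoded by Ppard, in place of the CRABP2 route. In Treg cells it had 60.7, 79.4, 59.1, 59.3 and 52.9 TPM in GR KO and 149, 101 and 94.5 TPM in GR WT. It fell in GR KO with no overlap (log2 fold change -0.86, SE 0.17, adjusted p = 0.0283, limma with Benjamini-Hochberg adjustment). The adjusted p ranged from 0.0135 to 0.172 over the alternatives, and the call was lost without GR KO replicate 1, 3, 4 or 5 and without GR WT replicate 1 or 3, and with median ratio scaling, no filter on low values or a replicate block. The keratinocyte marker sums given above for Treg libraries moved the same way, and their part in it was not tested. In HFSC the same gene had 2139, 2791 and 3212 TPM in GR KO and 1393, 1648 and 1550 TPM in GR WT. There the groups did not overlap in the other direction, without passing the threshold (log2 fold change 0.81, SE 0.16, adjusted p = 0.0749). Ppard averaged 4.37 TPM in GR KO and 6.80 TPM in GR WT Treg libraries (log2 fold change -0.52, SE 0.22, adjusted p = 0.324). In HFSC it averaged 32.7 TPM in GR KO and 33.5 TPM in GR WT.

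The step ahead of the dehydrogenases, from retinol to retinal, was followed in 14 oxidoreductase genes, of which 13 were tested in HFSC, 9 with positive fold changes. Rdh10, the main retinol dehydrogenase of embryos, had 10.4, 12.8 and 8.78 TPM in HFSC GR KO and 2.40, 6.11 and 8.22 TPM in HFSC GR WT (log2 fold change 0.93, SE 0.36, adjusted p = 0.255). Its groups did not overlap, beside 10.7% of all genes that were higher without overlap. Sdr16c5 and Rdh11, retinol dehydrogenase and retinal reductase genes named after their values were seen, had smaller fold changes with smaller errors, also without overlap. Sdr16c5 had 71.3, 83.9 and 76.7 TPM in GR KO and 42.1, 47.7 and 48.0 TPM in GR WT (log2 fold change 0.74, SE 0.11, adjusted p = 0.0565). Rdh11 had 150.2, 207 and 206 TPM in GR KO and 88.2, 106 and 128 TPM in GR WT (log2 fold change 0.80, SE 0.17, adjusted p = 0.0907). Dhrs3, which returns retinal to retinol, averaged 141 TPM in GR KO and 138 TPM in GR WT (log2 fold change 0.03, SE 0.13).

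In Treg cells the genes named for this step stood at lower levels. Rdh10 averaged 4.01 ± 0.583 TPM in GR KO and 3.17 ± 1.70 TPM in GR WT, and Dhrs3 2.15 ± 0.783 TPM in GR KO and 3.28 ± 1.82 TPM in GR WT (SD, n = 5 and 3), both with overlap. Sdr16c5 averaged 0.504 TPM in Treg GR KO and 2.56 TPM in Treg GR WT (log2 fold change -1.33, adjusted p = 0.118).

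The partner receptors, with which RARs bind DNA, overlapped between genotypes in both cell types. Rxra averaged 177 ± 6.48 TPM in HFSC GR KO and 177 ± 21.8 TPM in HFSC GR WT, and Rxrb 43.6 ± 1.75 TPM in GR KO and 46.4 ± 1.95 TPM in GR WT (SD, n = 3 each). In Treg cells Rxra averaged 37.7 ± 5.45 TPM in GR KO and 35.3 ± 3.94 TPM in GR WT, and Rxrb 23.4 ± 1.30 TPM in GR KO and 21.4 ± 4.39 TPM in GR WT (SD, n = 5 and 3). Cyp26a1, the other main breakdown enzyme, was at 0 in every library of both tables, and Rarb and Aldh1a2 were at 0 in every Treg library. Among 8 receptor cofactors, such as Ncoa3 and Ncor1, all had negative fold changes in Treg cells, with a median of -0.63, and all were at an unadjusted p under 0.05, beside 6460 negative genes and 1630 at such a p among the 11579 tested. None passed the threshold there, the lowest adjusted p being 0.0765 (limma). In HFSC 7 of the 8 were positive, with a median of 0.18, and 0 were at an unadjusted p under 0.05.

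The rest of the enzyme family lay on both sides of 0 in HFSC. Of 15 other aldehyde dehydrogenase genes 14 were tested in HFSC and 0 passed, 7 being at an unadjusted p under 0.05, beside 2074 of all 12493 genes. Without overlap 3 were higher and 4 lower in GR KO, beside 10.7% and 12.8% of all genes. Fold changes were positive for 6 and negative for 8, with a median of -0.12. Aldh2, the mitochondrial enzyme of ethanol breakdown, averaged 264 ± 24.0 TPM in GR KO and 261 ± 8.48 TPM in GR WT. Aldh3a1, an epithelial detoxifying enzyme, averaged 82.7 ± 10.7 TPM in GR KO and 118 ± 13.7 TPM in GR WT, with no overlap (log2 fold change -0.51, SE 0.13, adjusted p = 0.128). Aldh3a2, the fatty aldehyde dehydrogenase of skin lipid metabolism, averaged 32.5 ± 3.10 TPM in GR KO and 30.5 ± 5.47 TPM in GR WT (SD, n = 3 each for these genes). In Treg cells 11 were tested by limma, 0 passed and 1 was at an unadjusted p under 0.05. There Aldh3a1 averaged 0.464 TPM in GR KO and 3.0 TPM in GR WT (log2 fold change -1.40, SE 0.40, adjusted p = 0.149).

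The genes around Aldh1a7 on chromosome 19 did not pass the threshold. Of the 5 genes on each side, 6 were tested in HFSC, Aldh1a1 among them, and 0 passed (limma), with 1 at an unadjusted p under 0.05. All 6 fold changes were positive, with a median of 0.29, and the lowest adjusted p was 0.117. Over all 12493 genes tested, 5901 were positive, the median was -0.02 and 2074 were at an unadjusted p under 0.05.

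Among the 5 genes whose profile over the 6 HFSC libraries was closest to that of Aldh1a7, of 12492 compared, were Carns1, Cyp17a1, Adig and Mir1892, which ranked 2 to 5. Likeness was measured by the root mean square distance between log2(TPM + 1) values centred on each gene's mean, which was 0.159 for Carns1 and 0.176 for Mir1892. Since Aldh1a7 itself separates the groups, genes close to it do so as well, and their differences are descriptions. Carns1, the carnosine synthase gene, had 41.3, 33.3 and 47.2 TPM in GR KO and 20.5, 15.7 and 24.5 TPM in GR WT. Cyp17a1, a steroid hydroxylase and lyase gene, had 317, 252 and 476 TPM in GR KO and 158, 167 and 160.0 TPM in GR WT. Adig, known from fat cells, had 34.3, 42.9 and 48.0 TPM in GR KO and 18.1, 13.4 and 16.3 TPM in GR WT. Mir1892, a short microRNA locus whose mRNA-library value may hold reads of a longer transcript, had 129, 156 and 175 TPM in GR KO and 73.9, 77.2 and 86.0 TPM in GR WT.

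Summed markers of sebocytes, the lipid-making cells of the gland attached to the follicle, stood higher in HFSC of GR KO mice, as Aldh1a7 did. The 8 of them summed to 4456, 5269 and 5400.1 TPM in GR KO and to 2013, 3200.3 and 3056 TPM in GR WT, without overlap. Within GR WT, replicate 1 had the lowest sum but the highest Aldh1a7, at 37.3 TPM. Within GR KO, replicate 2 had the lowest Aldh1a7 but not the lowest sum, and replicate 3 was highest in both. Of the 6 tested all had positive fold changes, with a median of 0.65, and 0 passed the threshold, 5 being at an unadjusted p under 0.05 (limma). Among all 12493 genes tested, 5901 were positive and 2074 were at such a p. Scd1, a fatty acid desaturase that makes up most of the sum, averaged 4502 TPM in GR KO and 2451 TPM in GR WT. None of the 8 was at 0 in every library. The part of such cells in the HFSC differences of Aldh1a7, Fabp5, Sdr16c5 and Rdh11 was not tested.

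**Figure D3:**
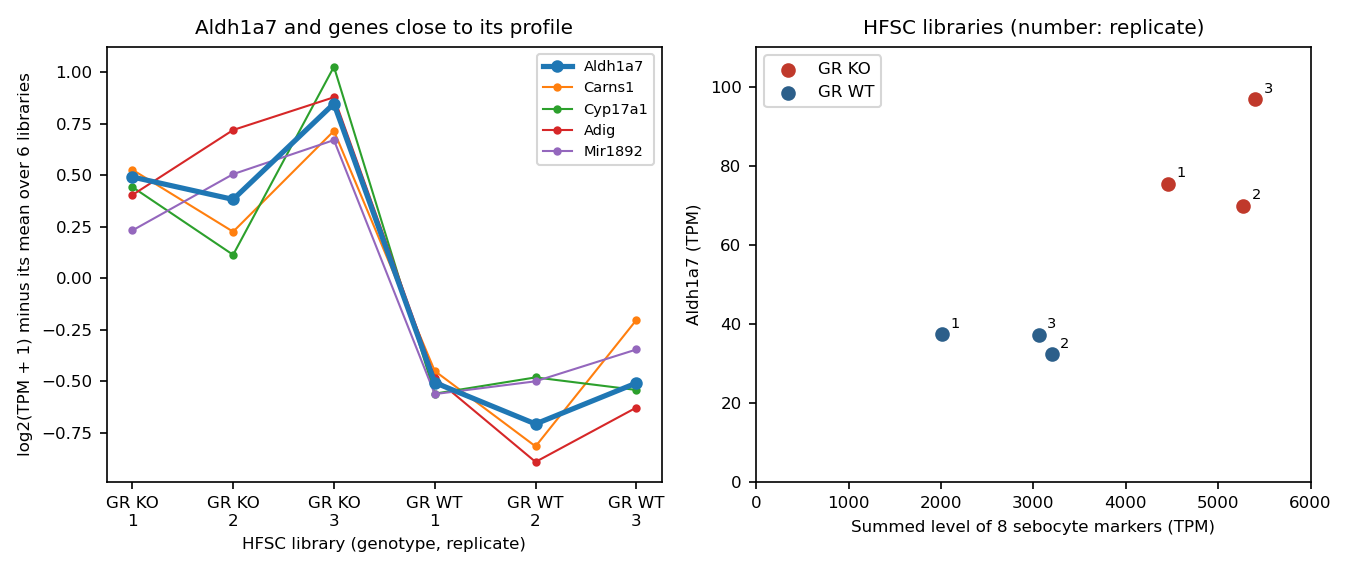
Left, log2(TPM + 1) of Aldh1a7 (thick line) and of Carns1, Cyp17a1, Adig and Mir1892, each minus its mean over the 6 HFSC libraries (vertical axis), by library, where lines only join the values of a gene. Right, Aldh1a7 in TPM against the summed TPM of 8 sebocyte markers in the same libraries, with GR KO (red) at 69.9 to 96.8 TPM of Aldh1a7 and sums of 4456 to 5400.1 TPM, and GR WT (blue) at 32.3 to 37.3 TPM of Aldh1a7 and sums of 2013 to 3200.3 TPM.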

How the data were processed

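Values were used as deposited, 1 table per cell type. Per the file headers, the authors gave TPM per gene row, with a RefSeq transcript and its length. The submitters' processing notes name mm10, STAR, HOMER, Trim Galore and FastQC. Their versions, and whether the strand was used in counting, are not given in the sources read. Without strand, reads of a gene and its antisense partner cannot be told apart. Groups and replicate numbers came from the sample titles, and the prefix on HFSC columns has no explanation in the labels. TPM times length was a whole multiple of 1 step per library within 0.1 tag for 100% of low values, which gave the tags. Tags are not independent molecules, and floors cover counting error only. Library sums were 639752 to 645251 TPM in HFSC and 649917 to 668742 TPM in Treg tables.

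Genes averaging at least 1 TPM in a table were tested there by limma 3.58.1 in R 4.3.3, with a trended prior, on log2(TPM + 1). Tests were two-sided and Benjamini-Hochberg adjusted over all genes, at 0.05. Such fold changes understate those of genes near 1 TPM. The fit was tested on simulated data. P-values measure the spread between these libraries, which may be technical. The members and lists were chosen with earlier results of these data known. Named genes are the 9 members, pathway and aldehyde dehydrogenase genes past the threshold, 13 others of those lists set by name, the 5 genes most like Aldh1a7, and markers, of which 2 are not reported here. Sdr16c5 and Rdh11 were added after their values were seen, and Ncoa3, Ncor1 and Aldh3b2 are named as examples. Alternatives covered pseudocounts of 0.1 and 5, filters, scaling, the prior, a replicate block and each library left out. The replicate block used only replicate numbers present in both genotypes, so in Treg cells it left out GR KO replicates 4 and 5.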

Additional observations from a re-analysis of the deposited data

Results flagged for a closer look

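In the group of 5 Treg GR KO libraries, 5 genes had 1 library far from the others by Dixon's gap test, of 21 such groups examined, where chance alone flags about 1 in 20. Crabp1 was at 532 TPM in replicate 4, with the others between 200.3 and 266 TPM. The same library was highest for Rdh10, at 5.01 TPM with the others between 3.50 and 3.93 TPM. It also held the only Aldh1a7 signal of its group, 0.0910 TPM from 2 tags, and the only Cyp17a1 signal, 0.407 TPM. For Aldh1a7 and Cyp17a1 the other 4 values were 0, so that any value above 0 would be singled out and the chance rate given does not hold. Aldh1a1 was at 0.913 TPM in replicate 5, with the others between 0 and 0.113 TPM. Most of those others were exactly 0, so the chance rate does not hold for Aldh1a1 either.

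For 3 of the 25 named genes examined the groups did not overlap in either cell type, in opposite directions, higher in GR KO in HFSC and lower in GR KO in Treg cells. Sdr16c5, Ncoa3 and Aldh3b2, which are named here but were not among the 25, did the same. Among all 12493 genes averaging at least 1 TPM in HFSC, 115 (0.921%) did the same. Cyp17a1 was named for a profile close to that of Aldh1a7 in HFSC, and both Aldh1a7 and Fabp5 were listed with earlier results known, so the count of 3 is a description. The log2 fold changes in HFSC were 1.15 for Aldh1a7, 0.81 for Fabp5 and 1.06 for Cyp17a1. The difference between the cell types was not tested, since the tables were made separately. In Treg cells Aldh1a7 and Cyp17a1 were too low for the fit, and Fabp5 is the one of the 3 that passed the threshold there, at -0.86.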

How the results depend on the processing

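The 22 genes called in HFSC became 48 with a mean of at least 5 TPM, 69 with median ratio scaling, 58 with quantile scaling, 51 with a robust prior, 2 with no filter on low values and 0 to 4 with a library left out. Higher calls made up 81.8% of the 22 and 91.3% of the 69. The 1 member called, Aldh1a7, became 0 with no filter and with each library left out (0 to 0), and kept its direction throughout. The 0 other pathway genes called in HFSC became 1 with the higher filter, median ratio scaling, quantile scaling and the robust prior, which was Sdr16c5. The 175 genes called in Treg cells became 79 to 177 with a library left out, the 1 pathway gene called became 0 with median ratio scaling and no filter, 2 with quantile scaling (Fabp5 and Ncoa3) and 0 to 1 with a library left out, the 0 aldehyde dehydrogenases became 1 with no filter (Aldh3b2), and the 0 members became 0 to 1.

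Whether replicate numbers pair the libraries is not given in the labels, and the few correlations that follow cannot show it. Deviations of same-numbered libraries correlated at 0.0156, 0.0619 and -0.0420 in HFSC and at 0.170, 0.0873 and -0.117 in Treg cells. With a replicate block, 66 genes were called in HFSC (92.4% higher), with 1 pathway gene (Rdh11), and 94 in Treg cells, with 0 pathway genes. In Treg cells the block also lacked GR KO replicates 4 and 5, so its counts come from fewer libraries.

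Some genes with fold changes near 0 turned direction without a call. In HFSC the log2 fold change of Dhrs3 became -0.078 without GR KO replicate 3 and -0.064 without GR WT replicate 3, and reached 0.10 at most with a library left out. That of Rxra became -0.0073 with quantile scaling, and lay between -0.082 and 0.097 with a library left out. That of Ppard lay between -0.15 and 0.035, of Aldh2 between -0.038 and 0.089 and of Aldh3a2 between -0.051 and 0.19. In Treg cells Rxrb lay between -0.0038 and 0.28, and Aldh2 between -0.29 and 0.48, with -0.21 under the replicate block. Cyp26b1 in Treg cells lay between -0.29 (replicate block) and 0.12 (quantile scaling). Both replicate block values of Treg cells also lack GR KO replicates 4 and 5. The cause of these changes was not tested. Depth limits Aldh1a3 and Stra6 in both tables, and Aldh1a1 and Aldh1a7 in Treg cells.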
